A study of Mus musculus with 14 samples.

Results

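The clustered protocadherin genes of mouse chromosome 18 were examined for DNA methylation in MBD-seq peak lists of 14 cell samples. MBD-seq captures sonicated genomic DNA with a methyl-CpG binding domain protein, so a peak of sequence tags marks a methylated stretch that holds CpG sites. The genes were chosen by symbol, those starting with Pcdha, Pcdhb or Pcdhg followed by a letter or digit in the annotation of NCBI build 37 (mm9). For each gene, every annotated first exon with 1 kb of upstream sequence was taken as a window, and overlapping windows of a gene were merged. The rule gave 41 of the 38960 windows of all genes, which were 10 in the alpha cluster, 22 in the beta cluster and 9 in the gamma cluster. The annotation puts the alpha transcripts under the symbols Pcdha11 (9 windows) and Pcdha3 (1 window) and every gamma transcript under the symbol Pcdhgc5. The alpha and gamma windows are therefore called alpha exon 1 to 10 and gamma exon 1 to 9 in genomic order, and these numbers are not gene names. Alpha exon 3 is the window of Pcdha3. Each of the 22 beta genes has its own symbol and its own window. A RefSeq gene table of a later build (GRCm38.p6) lists 14 alpha, 22 beta and 22 gamma symbols, so the alpha and gamma windows cover just a part of the first exons, and exons without a window may lie between those numbered side by side.

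Clustered protocadherins are cell surface adhesion proteins of the cadherin superfamily, best known in neurons, where each cell uses a small choice of them and the combination marks the cell's identity. In the alpha and gamma clusters, a large variable first exon codes for the outside of the protein, the membrane span and part of the tail, and is spliced to a few constant exons shared by the cluster. The beta genes have no constant exons. Each variable exon has its own promoter, and methylation of promoter and exon is known to go with silence of that exon in cells that do not use it.

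Induced pluripotent stem (iPS) cells were represented by 4 Aid+/+ and 4 Aid-/- clones, embryonic stem (ES) cells by 3 lines, and mouse embryonic fibroblasts (MEFs), all Aid+/+, by 3 cultures. Aid codes for activation-induced cytidine deaminase, and Aid-/- cells came from mice lacking it. The iPS clones were derived by retroviral Oct3/4, Sox2, Klf4 and c-Myc from MEFs that carried a Nanog-GFP reporter, a fluorescent marker driven by Nanog, with which reprogrammed cells were selected. They were male, with C57BL6, DBA and 129S4 mixed in their background, at passage 6 and grown on gelatin. Each is 1 clone, and each genotype has clones of 2 clone series, with 1 of the series in common. The MEFs were at passage 3 and each came from its own embryo. The study calls the Aid+/+ MEFs of this assay parental. It describes the MEFs used to make iPS cells as male and homozygous for the reporter. The ES lines, also grown on gelatin, were RF8 (129SV, passage 19), MG1.19 (129Ola) and B6 ES (C57BL6), so that line and strain cannot be told apart. A methylation peak list does not measure whether Aid is deleted, and the genotypes are those of the labels.

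The peak lists differed in size between samples, which bears on every count that follows. They held 78847 to 110943 peaks in Aid+/+ iPS cells, 69669 to 91985 in Aid-/- iPS cells, 33694 to 106385 in ES cells and 35546 to 57893 in MEFs. The tags left after the authors' filter on duplicates numbered 9.63 to 15.9 M, 6.65 to 11.5 M, 10.2 to 15.5 M and 17.5 to 19.6 M, respectively (M, mega). Peaks held 50.5 to 62.5% of those tags in Aid+/+ iPS cells, 49.6 to 62.2% in Aid-/- iPS cells, 16.7 to 54.5% in ES cells and 19.2 to 27.4% in MEFs. A window without a peak was below the threshold of the peak caller, and not shown to be unmethylated. Since the DNA came from many cells, methylation in a part of the cells and partial methylation in all of them cannot be told apart. The samples fall into 4 classes by the name prefix and the version of the peak caller (MACS) in the file headers. These classes are called processing runs here, and the sample labels do not say whether they are laboratory or sequencing batches. Aid+/+ iPS cells shared no run with MEFs or ES cells, so run and cell type cannot be told apart. As a check of identity, the window of Dazl, a germ cell gene usually methylated in other cells, held a peak in all 14 samples. The window of Pou5f1, a pluripotency gene, held one in all 8 iPS clones and in no ES line or MEF culture. Pou5f1 codes for Oct3/4, so the iPS clones also carry retroviral copies of its coding sequence. Whether the tags of this peak came from those copies was not tested. By pyrosequencing, the study found the promoter of this gene hypomethylated in iPS cells of either genotype. The window of Nanog, another pluripotency gene, held a peak in 2 MEF cultures and in no other sample. Dppa3 and Col1a2 had no peak in any sample, Col1a1 had one in all 8 iPS clones, 1 ES line and no MEF culture, and peaks near these genes do not measure their expression.

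The peaks of the clustered protocadherins mostly lay inside the first exons, not at their start. The summit of the strongest peak was within the first exon in 110 of the 111 alpha window and sample pairs that had a peak, in 158 of 162 beta pairs and in 67 of 67 gamma pairs. At gamma exon 9, with peaks in 8 samples, the interval counted as exon is 5534 bp long and takes in a constant exon. Its summits are thus not shown to lie in the variable exon. The median distance of the summit from the start of the exon was 1467 bp in the alpha cluster (quartiles 1414 and 1610.5 bp), 1688.5 bp in the beta cluster (1583 and 1841.25 bp) and 1960 bp in the gamma cluster (1382.5 and 2076.5 bp). It was within 250 bp of the start in 1, 0 and 2 pairs, respectively. The position differed from gene to gene. The median per window was 1400.5 to 1929 bp at alpha exons 1 to 8, 729 bp (Pcdhb3) to 1995 bp (Pcdhb2) at the beta genes other than Pcdhb22, and 840 bp (exon 3) to 2413 bp (exon 7) in the gamma cluster. Over the alpha cluster, the medians by group were 1516 bp in Aid+/+ iPS cells, 1445 bp in Aid-/- iPS cells, 1466 bp in ES cells and 1436.5 bp in MEFs. In the beta cluster the medians were 1635, 1646, 1696 and 1842 bp in the same order.

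**Figure D1:**
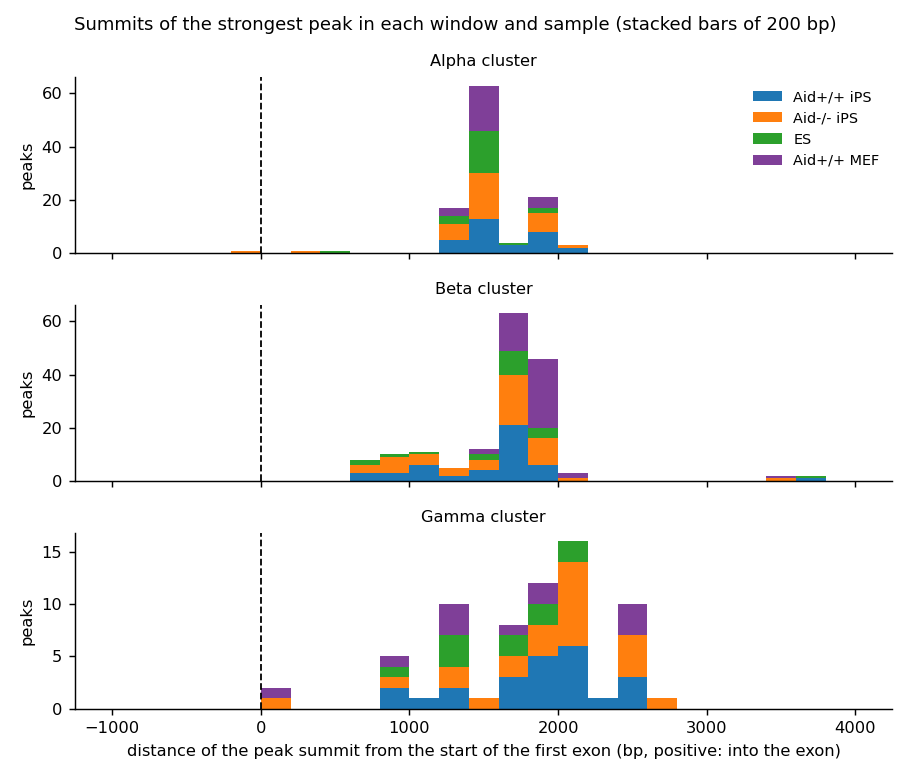
Distance in bp from the start of the first exon to the summit of the strongest peak, for each window and sample with a peak, counted in bins of 200 bp and stacked by group. In the alpha cluster, 110 of 111 summits lay inside the exon, with a median distance of 1467 bp, and only 1 lay upstream of the start.

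The windows are long and, in the alpha and gamma clusters, rich in CpG. The median window was 3394 bp with 37.4 CpG per kb in the alpha cluster, 4422 bp with 19.6 CpG per kb in the beta cluster and 3608 bp with 33.03 CpG per kb in the gamma cluster. Over all gene windows the medians were 1243 bp and 17.2 CpG per kb. The 1102 gene windows of 3 kb or longer, with medians of 3645 bp and 23.5 CpG per kb, are given as a closer comparison. The beta genes are also close copies of each other in places, so values of single beta genes are uncertain where tags could map to several copies. Whether tags of single alpha or gamma exons could map to several exons was not tested either.

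A large share of the protocadherin windows held a peak in iPS cells and MEFs. Peaks were in 7.75 ± 0.50 of 10 alpha windows in Aid+/+ iPS cells (SD, n = 4), 8.25 ± 0.957 in Aid-/- iPS cells (SD, n = 4), 7.67 ± 1.53 in ES cells (SD, n = 3) and 8 in each of the 3 MEF cultures. Of the 22 beta windows, 11.5 ± 2.08 held a peak in the Aid+/+ clones, 12.75 ± 1.5 in the Aid-/- clones and 15 ± 1.73 in MEFs. Of the 9 gamma windows, 5.75 ± 2.22, 5.75 ± 0.957 and 3.67 ± 0.577 held one, respectively. Among all gene windows of 3 kb or longer, the shares were 35.9 ± 4.19% in the Aid+/+ clones, 39.5 ± 2.89% in the Aid-/- clones and 28.4 ± 3.76% in MEFs. The alpha share, at 77.5, 82.5 and 80%, was thus above that of long windows in these groups. The beta share was 52.3 ± 9.46% in Aid+/+ iPS cells and 68.2 ± 7.87% in MEFs, whereas the share of long windows was lower in MEFs than in Aid+/+ iPS cells. The gamma share was 63.9 ± 24.6% in Aid+/+ iPS cells and 40.7 ± 6.42% in MEFs. These counts depend on the length of the peak lists. With an equal number of the most significant peaks taken from every sample, the mean number of beta windows with a peak was 2 in the Aid+/+ clones and 11 in MEFs, and the gamma means were 0.5 and 2.67, so that the gamma direction turned. The share of long or all gene windows was not computed for that setting. These means have no test, since the windows of a cluster are not replicates of a condition.

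The 3 ES lines did not resemble each other and their mean stands for none of them. B6 ES had peaks in 9 alpha, 18 beta and 7 gamma windows, as many as or more than any iPS clone in the alpha and beta clusters. RF8 had peaks in 8, 2 and 2 windows, and MG1.19 in 6, 0 and 1. Of the 2 beta windows of RF8, that of Pcdhb5 was reached by a peak with its summit past the end of the exon. Both lines had peaks in most alpha windows and in few or none of the beta windows. The share of all long gene windows with a peak was 44.4% in B6 ES, 22.9% in RF8 and 11.1% in MG1.19, so the lines also differed in this order over the genome.

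**Figure D2:**
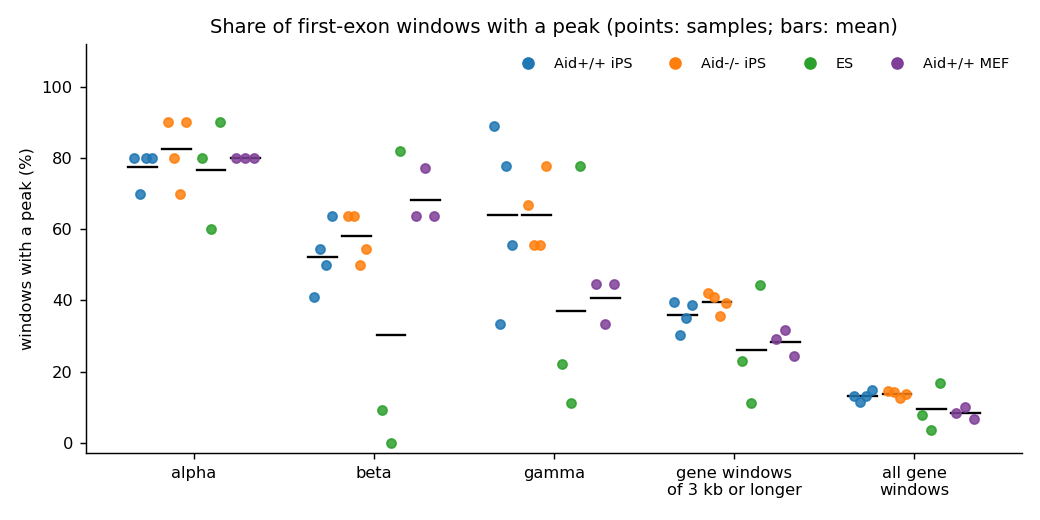
Percent of first-exon windows with a peak in each sample (points) and the group mean (bars), for the alpha, beta and gamma clusters, for gene windows of 3 kb or longer and for all gene windows. The alpha cluster stays between 60 and 90% in every sample, while the beta cluster runs from 0% in MG1.19 ES cells to 81.8% in B6 ES cells.

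Within the alpha cluster, which spans chr18:37088939-37347311, the 10 windows fell into 8 with peaks in most samples and 2 with peaks in few. Alpha exons 1, 3, 5, 6, 7 and 8 had a peak in all 14 samples, alpha exon 2 in 13 (all but MG1.19) and alpha exon 4 in 11. Alpha exon 9 (chr18:37248790-37252225) had a peak in 2 samples, Aid-/- iPS replicate 1 and B6 ES, with 12 and 29 tags. Alpha exon 10 (chr18:37302623-37306184) had a peak in Aid-/- iPS replicate 4 alone, with 22 tags. Of the 10 windows, these 2 lie nearest the constant exons. Alpha exon 9 holds 27.6 CpG per kb, the lowest of the cluster, and alpha exon 10 holds 41.3, more than 8 of the other 9 windows. The summits of their 3 peaks lay at -38, 529 and 315 bp from the exon start, whereas those of alpha exons 1 to 8 lay between 1307 and 2107 bp. None of the 3 constant exons of the cluster had a peak in any sample.

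The beta cluster (chr18:37423652-37681073) was uneven from gene to gene and from clone to clone. Pcdhb15 had a peak in 13 samples, all but MG1.19, and Pcdhb10, Pcdhb13, Pcdhb16 and Pcdhb19 in 12. Peaks were present in all 8 iPS clones at 7 beta genes, Pcdhb6, Pcdhb10, Pcdhb13, Pcdhb15, Pcdhb16, Pcdhb18 and Pcdhb19. Pcdhb20, a pseudogene with a window of 1182 bp and 9 CpG, had none in any sample, and Pcdhb2 had one in B6 ES alone, with 18 tags. Pcdhb19 had the strongest peaks of the cluster in Aid+/+ iPS cells, with a fold enrichment over local background of 29.8, 27.3, 28.3 and 26.6. The summits of these peaks lay at 778 to 844 bp from the exon start. In MEFs the strongest peak at Pcdhb19 had its summit elsewhere, at 1783 to 1862 bp, with a fold enrichment of 14.9, 9.99 and 13.9, so that the values of the groups are those of different sites. The summits at Pcdhb18 also lay apart, at 1149 to 1176 bp in Aid+/+ iPS cells and 1862 to 1868 bp in MEFs. At Pcdhb5, the peaks of Aid+/+ iPS replicate 3 and RF8 had their summits past the end of the exon, at 3697 and 3668 bp from its start. They covered 1.52 and 7.46% of the window and are counted as peaks there. Peaks at Pcdhb22 need care. A strong peak just past the end of its window was present in all 14 samples and reached into the window in Aid-/- iPS replicate 4 and MEF replicate 3 by its edge, which gave 401 and 887 tags there. B6 ES had 171 tags in the window, with the summit at 1684 bp from the exon start and a fold enrichment of 4.75, and the other 11 samples had no peak there.

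In the gamma cluster (chr18:37832989-38001527), no window had a peak in all samples, and the exons fell into different patterns. Gamma exon 6 had a peak in 11 samples and gamma exon 1 in 10, while gamma exon 3 had one in B6 ES alone (36 tags) and gamma exon 8 in 5 samples. Gamma exons 1 and 5 had peaks in all 8 iPS clones and in no MEF culture. Gamma exon 7 had peaks in 7 of the 8 iPS clones and in no MEF culture. Gamma exons 4, 6 and 9 had peaks in all 3 MEF cultures and in part of the iPS clones. At gamma exon 9 the summits lay at 2558 to 2576 bp from the exon start in MEFs and at 820 and 1702 bp in Aid+/+ iPS cells. The last constant exon of the cluster (chr18:37999557-38001527) had a peak in all 8 iPS clones, with 18 to 44 tags, in B6 ES with 65 tags and in MEF replicate 2 with 15 tags, and in none of the other 4 samples. The window of gamma exon 9 is 6534 bp long because it merges the first exons of 2 transcripts. It ends with the constant exon at chr18:37984675-37984733.

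**Figure D3:**
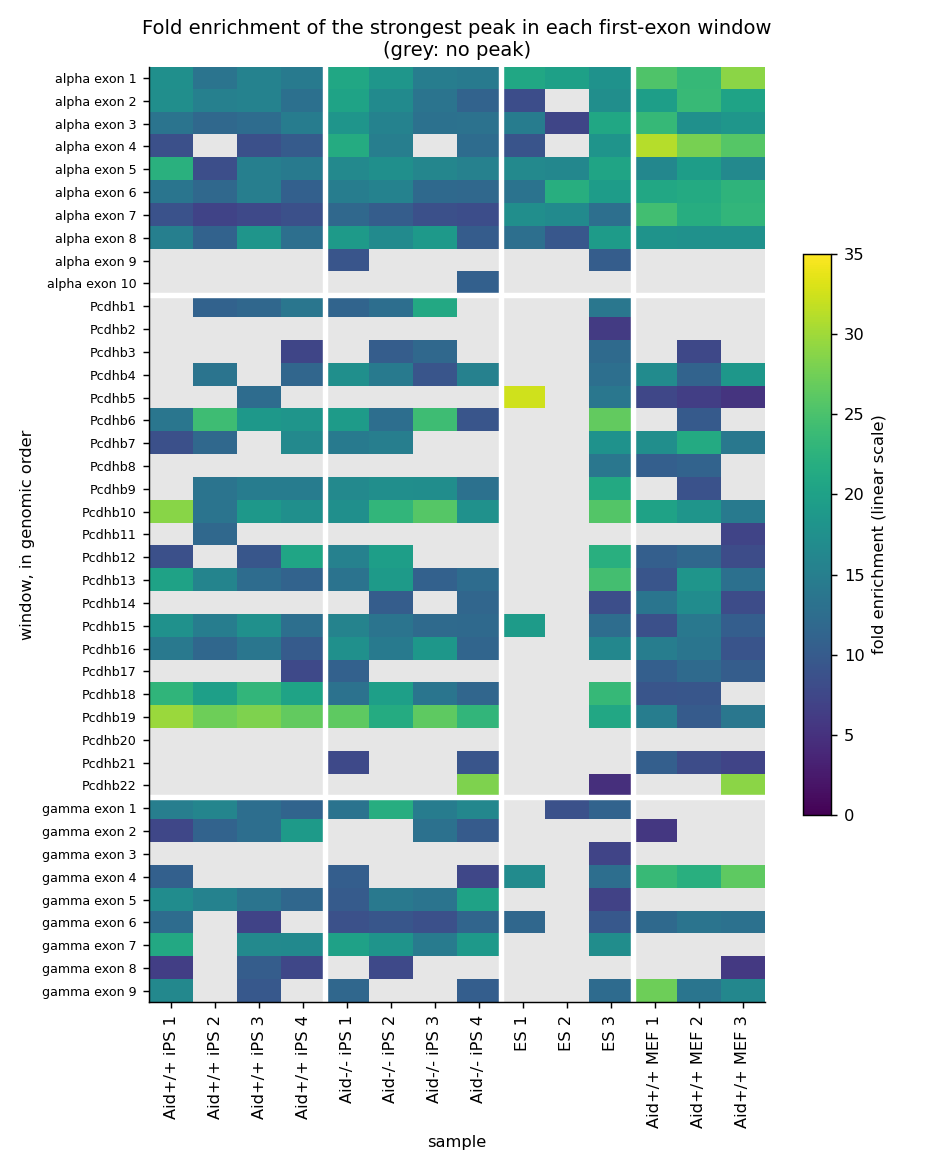
Fold enrichment over local background of the strongest peak in each of the 41 windows (rows, in genomic order) and 14 samples (columns), on a linear colour scale, with grey for no peak. Alpha exons 1 to 8 are filled in nearly every sample, the beta rows are empty in RF8 (ES 1) and MG1.19 (ES 2) but for 2 windows of RF8, and gamma exons 1, 5 and 7 are empty in the 3 MEF cultures.

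Fibroblasts and the pluripotent cells made from such fibroblasts were compared to see where methylation of these exons differs between the cell types. The tags in the peaks of a window are given as RPM, the tags per 1000000 filtered tags of the sample, with 0 where there was no peak. At alpha exon 3 the Aid+/+ iPS clones had 4.78, 2.06, 3.68 and 5.81 RPM, and the MEF cultures had 17.0, 16.0 and 19.1. At alpha exon 8 the values were 3.77, 1.72, 5.41 and 3.63 in Aid+/+ iPS cells and 20.1, 16.7 and 18.4 in MEFs. At alpha exon 5 they were 3.58, 2.41, 3.68 and 5.29 against 16.1, 16.6 and 14.8. The groups did not overlap at any of these exons, and the Aid-/- iPS clones, at 4.01 to 9.61 over the 3 exons, also stayed below every MEF culture. Alpha exon 4 had 2.20, 0, 2.35 and 1.45 RPM in Aid+/+ iPS cells and 10.9, 12 and 9.44 in MEFs.

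Alpha exon 2 went the other way on this scale. It had 13.4, 22.6, 19.8 and 17.3 RPM in Aid+/+ iPS cells and 8.16, 10.8 and 8.62 in MEFs, with no overlap. The summits at alpha exon 2 lay at 1384 to 2082 bp from the exon start in Aid+/+ iPS cells and at 1334 to 1376 bp in MEFs. The alpha windows are of nearly equal length, 3382 to 3562 bp. Alpha exon 2 had more tags than any other alpha exon in every Aid+/+ iPS clone, and in every MEF culture it had the fewest of alpha exons 1 to 8. RPM was higher in every MEF culture than in every Aid+/+ iPS clone at 6 of the 10 alpha windows, 4 of the 22 beta windows and 3 of the 9 gamma windows, against 7.35% of long gene windows and 1.71% of all gene windows. It was lower in every MEF culture at 1 alpha, 3 beta and 2 gamma windows, or 10, 13.6 and 22.2% of each cluster, against 17.2% of long and 6.48% of all gene windows. For the alpha windows the 6 were exons 1, 3, 4, 5, 6 and 8.

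**Figure D4:**
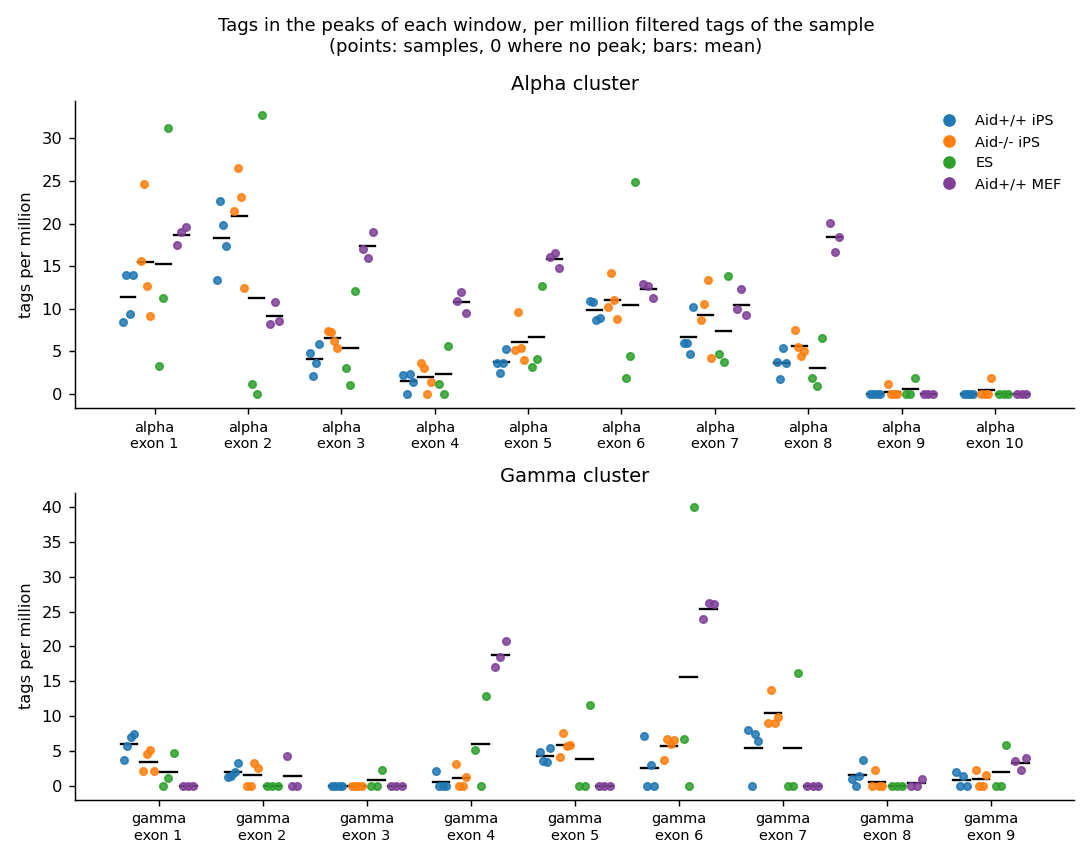
Tags in the peaks of each alpha (top) and gamma (bottom) window in RPM (tags per 1000000 filtered tags), for each sample (points, 0 where no peak) with the group mean (bars), on linear axes. At alpha exons 3, 4, 5 and 8 and gamma exons 4 and 6 the 3 MEF cultures lie above all 8 iPS clones, and at gamma exons 1, 5 and 7 they lie at 0.

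The tag counts were tested at merged regions with a peak in all samples compared, over the whole genome, by edgeR's quasi-likelihood test with Benjamini-Hochberg (BH) adjustment, after scaling by the tags in shared peaks (TMM). The p-values measure the spread between these clones and cultures, some of which share a clone series. Of all regions tested, 23.7% were higher and 19.6% lower in MEFs than in Aid+/+ iPS cells. A tested region was found in 7 of the 10 alpha windows, 6 of the 22 beta windows and none of the 9 gamma windows. The region of Pcdhb22 touches its window through the edge of the peak of MEF replicate 3 alone, and is given apart from the other 5 beta regions. Of these regions, 6 of 7 alpha and 3 of 5 beta regions were higher in MEFs and none was lower. The median log2 change of the alpha regions was 2.01 and that of the 5 beta regions 0.97, against -0.05 over all regions. The largest changes were at alpha exon 8 (log2 change 3.62 ± 0.28 SE, BH-adjusted p = 4.66e-07), alpha exon 3 (3.53 ± 0.3 SE, adjusted p = 1.06e-06) and alpha exon 5 (3.36 ± 0.24 SE, adjusted p = 2.53e-07). Alpha exons 1, 7 and 6 were higher by 2.01, 1.91 and 1.59. The summits at alpha exon 6 lay at 1779 to 1853 bp from the exon start in Aid+/+ iPS cells and at 1420 to 1450 bp in MEFs. Alpha exon 2 changed by 0.29 ± 0.20 SE and did not pass the test (adjusted p = 0.252).

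In the beta cluster, the regions of Pcdhb10 (log2 change 1.46), Pcdhb13 (1.41) and Pcdhb16 (0.97) passed the test, with adjusted p of 0.00123, 0.00287 and 0.0074. The strong peak past the end of the Pcdhb22 window also passed (1.60, adjusted p = 8.13e-05), but it is not a measurement of that window. The Pcdhb19 region merges the site used in iPS cells and the one used in MEFs. Pcdhb19 (0.45, adjusted p = 0.117) and Pcdhb15 (0.30, adjusted p = 0.378) did not pass. The beta result depends on the scaling, and the alpha result depends on it in part. When the counts were scaled by all filtered tags instead, the median of all regions moved to -1.30, 5.79% of regions were called higher and 78.7% lower. Under that scaling 5 alpha regions (exons 1, 3, 5, 7 and 8) were still higher in MEFs, no beta region was, and alpha exon 2, Pcdhb15 and Pcdhb19 were lower, with log2 changes of -0.99, -0.97 and -0.80. Relative to the median of all regions, the alpha median was then 2.01 higher and the median of the 5 beta regions 1.01 higher, against 2.05 and 1.01 under TMM. On fold enrichment, a ratio to the local background, tested with limma, 5.23% of all regions were higher and 26.2% lower. Alpha exons 1, 3, 6 and 7 were then higher in MEFs. Alpha exons 5 and 8, among the largest changes under TMM, did not pass on fold enrichment, nor did alpha exon 2. The 7 alpha log2 changes were all positive, between 0.29 and 1.52 with a median of 0.59, against -0.26 over all regions. Pcdhb19, with its different sites, was lower (log2 change -1.14, adjusted p = 0.0017), and no beta region was higher.

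**Figure D5:**
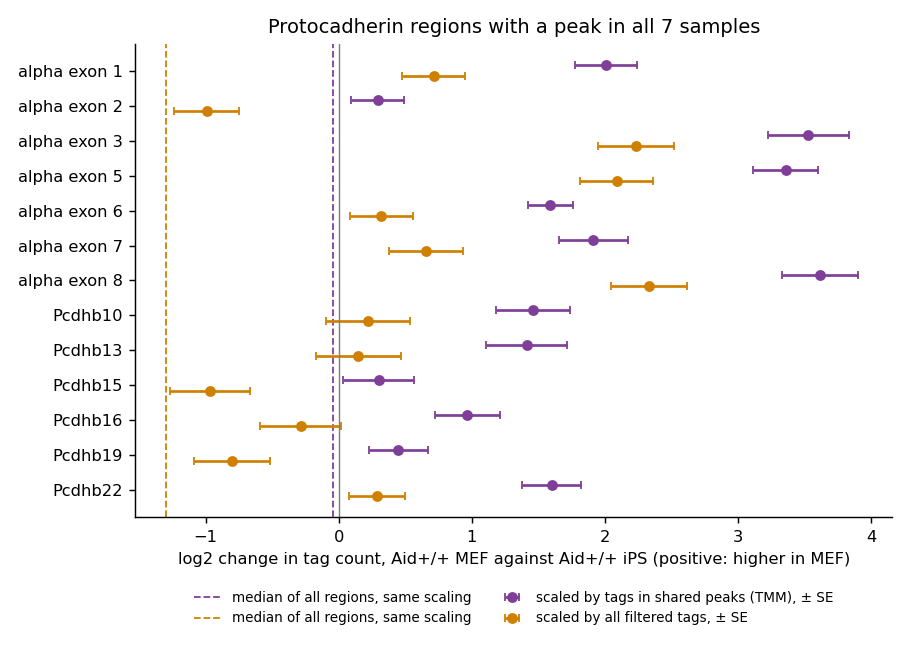
Log2 change in tag count between Aid+/+ MEFs and Aid+/+ iPS cells (positive, higher in MEFs) with its standard error, for the 13 protocadherin regions with a peak in all 7 samples (that of Pcdhb22 is the peak past its window), under scaling by tags in shared peaks and by all filtered tags. Dashed lines mark the median of all regions under each scaling, -0.05 and -1.30, and alpha exons 3, 5 and 8 lie farthest to the right under both.

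Some windows had a peak in every sample of one of these groups and in none of the other. Pcdhb14 and Pcdhb21 had a peak in all 3 MEF cultures and in no Aid+/+ iPS clone, a pattern found at 0.657% of all gene windows and 2.09% of long ones. Pcdhb14 had 36, 38 and 21 tags in the MEFs and Pcdhb21 had 65, 47 and 30. Both also had a peak in 2 Aid-/- iPS clones, with at most 36 tags. Gamma exons 1 and 5 showed the reverse, a pattern found at 1.9% of all gene windows and 3.99% of long ones. Gamma exon 1 had 3.77, 5.68, 6.98 and 7.47 RPM in the Aid+/+ iPS clones, and gamma exon 5 had 4.84, 3.53, 3.37 and 5.40. For each of the 4 windows the exact two-sided Fisher test gave p = 0.0286, the smallest that 4 against 3 samples allow. The BH-adjusted p was 0.20, the smallest over all 6958 variable gene windows. No window of any gene passed the threshold, so the adjusted test cannot decide about these 4. These patterns depend on the length of the peak lists. With an equal number of the most significant peaks per sample, protocadherin windows of all MEFs and no Aid+/+ iPS clone numbered 12, and none showed the reverse. This setting cuts the longer iPS lists more than those of MEFs. The share of all gene windows with these patterns was not computed for it, so the 12 is not read as a result about the protocadherins.

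Gamma exons 4 to 7, a stretch picked after the values were seen, alternated in direction between MEFs and Aid+/+ iPS cells. The alternation did not hold along the whole cluster. Gamma exons 1 and 2 had a peak in 4 and 4 Aid+/+ iPS clones and in 0 and 1 MEF cultures. Gamma exons 7 and 8 had a peak in 3 and 3 of these clones and in 0 and 1 cultures, and gamma exon 3 had none in either group. Gamma exon 4 (chr18:37900748-37904312) had a peak in 1 Aid+/+ iPS clone, with 2.14 RPM, and 17.0, 18.4 and 20.8 in the MEFs. Gamma exon 5, the next window, had no peak in MEFs. Gamma exon 6 had 7.16, 0, 2.98 and 0 RPM in Aid+/+ iPS cells and 23.9, 26.2 and 26.0 in MEFs. Gamma exon 7 had 8.04, 0, 7.45 and 6.44 in Aid+/+ iPS cells and no peak in MEFs. The MEF cultures of both processing runs showed this alternation, with MEF replicate 1 in a run of its own among MEFs. That run also holds Aid-/- iPS replicate 3, and between these 2 samples RPM was higher in the MEF culture at 6 alpha, 8 beta and 4 gamma windows and lower at 2, 10 and 3, against 13.2% higher and 30.04% lower among long gene windows. These counts set 1 culture against 1 clone of the other iPS genotype, and a part of the processing run in the differences was not tested.

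The comparison between genotypes asked whether loss of Aid changed methylation of these exons in iPS cells. No protocadherin window had a peak in every clone of one genotype and in none of the other. Such a pattern was found at 0.0103% of all and 0% of long gene windows for Aid-/- iPS cells, and at 0.0231 and 0.181% for Aid+/+ iPS cells. Tested regions were found in 7 alpha, 8 beta and 2 gamma windows, that of Pcdhb22 through the edge of the peak of Aid-/- iPS replicate 4 alone, and none passed the edgeR test in either direction, as for 0% higher and 0.002% lower over all 49923 regions (1 region). At an unadjusted p under 0.05 there were 2 alpha, 1 beta and 1 gamma regions, against 3.57% of all regions (1781). By DESeq2, by limma and with scaling by all filtered tags (0.022% of all regions lower) none of the protocadherin regions passed either.

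All 7 alpha regions had a positive log2 change between Aid-/- and Aid+/+ iPS cells, between 0.21 and 0.90, with a median of 0.51 against -0.0022 over all regions. The largest was at alpha exon 3 (0.90 ± 0.28 SE, BH-adjusted p = 1.00 by edgeR, unadjusted 0.00516), followed by alpha exon 5 (0.76 ± 0.31 SE). In RPM, alpha exon 3 had 7.41, 7.28, 6.16 and 5.41 in Aid-/- iPS cells, overlapping the 2.06 to 5.81 of Aid+/+ iPS cells. With the processing run as a term, the alpha median was 0.45 and 6 of the 7 were positive. Only the run of Aid+/+ iPS replicate 1 held clones of both genotypes. Those changes thus compare this clone alone with the Aid-/- clones of its run. With the clone series as a block the alpha median was 0.68, all 7 were positive and 4 had an unadjusted p under 0.05. The same p was reached by 6.88% of all regions (3435), and none of the 7 passed the adjusted test. Only series 979 held both genotypes, so that these changes compare the clones of that series alone. On fold enrichment the alpha median was 0.17. The alpha exons lie side by side and share their libraries, so that they are not independent of each other. The beta regions lay between -0.39 (Pcdhb18) and 0.51 (Pcdhb16), with a median of 0.07, or 0.0252 without Pcdhb22. Pcdhb22 (0.40), Pcdhb10 (0.38), Pcdhb6 (-0.28) and Pcdhb19 (-0.09) lay between them.

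In the gamma cluster, gamma exon 1 had a log2 change of -0.73 ± 0.29 SE and gamma exon 5 of 0.50 ± 0.28 SE, both at an adjusted p of 1.00 by edgeR. Gamma exon 1 had 3.77 to 7.47 RPM in Aid+/+ iPS cells and 2.06, 4.55, 5.11 and 2.18 in Aid-/- iPS cells, with overlap. Its sign turned with peak length in the offset (0.06) and on fold enrichment (0.26). Gamma exon 7 was the one window at which RPM values did not overlap between genotypes, a pattern found at 0.208% of all gene windows and 1.27% of long ones for higher values in Aid-/- iPS cells. No window had higher RPM in every Aid+/+ clone, which was so at 0.0821% of all and 0.272% of long gene windows. Gamma exon 7 had 9.0, 13.8, 9.02 and 9.86 in Aid-/- iPS cells and 8.04, 0, 7.45 and 6.44 in Aid+/+ iPS cells. Aid+/+ iPS replicate 2, which had no peak there, also had the fewest gamma windows with a peak of the iPS clones, 3 of 9. Peaks at gamma exon 6 were in 4 of 4 Aid-/- and 2 of 4 Aid+/+ clones, and at gamma exon 2 in 2 of 4 and 4 of 4 (exact two-sided Fisher test, p = 0.429 for each).

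ES cells were compared with Aid+/+ iPS cells as the reference for pluripotent cells. Tested regions were found in 6 alpha windows and in no beta or gamma window, since none of these windows had a peak in both RF8 and MG1.19. None passed the edgeR test, as against 0.0126% higher and 0.00421% lower over all regions, and 2 had an unadjusted p under 0.05, against 10% of all 23779 regions (2383). The 6 alpha log2 changes lay between 0.31 and 1.44 with a median of 0.88, against -0.02 over all regions. Alpha exon 5 had the smallest p (1.44 ± 0.40 SE, adjusted p = 0.244 by edgeR), and it passed by DESeq2 (1.52, adjusted p = 0.0372), which called 0.866% of all regions higher and 0.475% lower. Alpha exon 1 followed with 1.07 ± 0.48 SE and alpha exon 3 with 1.02 ± 0.50 SE. These values rest on lines that differ widely. Without B6 ES the alpha changes lay between -0.57 and 0.97 with a median of 0.11, against -0.06 over all regions, and 3 of the 6 were positive. At alpha exon 3, RPM was 3.03 in RF8, 1.08 in MG1.19 and 12.1 in B6 ES, and without B6 ES its log2 change was -0.06. At alpha exon 1 they were 3.23, 11.3 and 31.2, and at alpha exon 6 they were 1.86, 4.44 and 24.9, with B6 ES the highest of all 14 samples at both.

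Gamma exon 2 had a peak in all 4 Aid+/+ iPS clones, with 21, 16, 25 and 31 tags, and in no ES line, a pattern found at 0.11% of all gene windows and 0.635% of long ones (exact two-sided Fisher test, p = 0.0286, BH-adjusted p = 0.78). Both p-values are the smallest of any gene window in this comparison, so that no window could pass. Gamma exon 2 was met again in RPM. It was the 1 protocadherin window with higher RPM in every Aid+/+ iPS clone than in every ES line, which was so at 1.06% of all and 2.72% of long gene windows. No protocadherin window had a peak in all ES lines and no Aid+/+ iPS clone, as for 0.0103% of all gene windows. Without B6 ES, 8 windows had a peak in every Aid+/+ iPS clone and in no ES line, namely Pcdhb6, Pcdhb10, Pcdhb13, Pcdhb16, Pcdhb18, Pcdhb19 and gamma exons 2 and 5. This pattern was found at 2.57% of all and 7.17% of long gene windows. At Pcdhb10 the Aid+/+ iPS clones had 54, 21, 36 and 32 tags, RF8 and MG1.19 had no peak, and B6 ES had 110.

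Related genes outside the 3 clusters were followed for comparison. Of 12 non-clustered protocadherins, which are adhesion proteins with a gene and promoter of their own, 5 had a peak in their windows in every Aid+/+ iPS clone, against 13.2% of all 22226 gene symbols. None had a peak in every MEF culture and 10 had none in any, against 8.92 and 82.4% of all. A gene was counted if any of its windows had a peak, and these genes have 1 (such as Pcdh7) to 9 windows (Pcdh15). The shares over all symbols are not matched for number or length of windows. Pcdh1, Pcdh7 and Pcdh11x had peaks in all 8 iPS clones and in no MEF culture. Of 15 genes within or beside the clusters, 3 had a peak in every Aid+/+ iPS clone and 3 in every MEF culture, and 11 had none in any MEF culture. Taf7, a transcription factor subunit gene between the beta and gamma clusters, had no peak in any sample. Slc25a2, a mitochondrial carrier gene next to it, had peaks in 7 of the 8 iPS clones, 1 ES line and all 3 MEF cultures. Of 11 known regulators of the clusters, 1 had a peak in every Aid+/+ iPS clone and 1 in every MEF culture. Ctcf, the factor that binds their promoters, had a peak in all 8 iPS clones, 2 ES lines and 1 MEF culture. Rad21 and Smc3, subunits of cohesin, and Smchd1, a silencing protein of the clusters, had none in any sample.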

How the data were processed

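MBD-seq peak lists of 14 samples were used, 1 per sample with no pooling. Per the submitters' processing notes and the study's methods, reads were mapped to mm9 with BWA (0.5.9rc1) after CASAVA (1.8.1). Per the file headers, the authors called peaks in each sample without a control by MACS (1.4.1 in 9 samples, 1.4.0rc2 in 5) at p = 1e-05 with at most 2 tags per position. Each deposited list gives, per peak, the count of tags, the score (the p-value on the log10 scale of MACS) and the fold enrichment over local background, a ratio computed by the authors' caller. The 18 pairs of samples within groups shared at most 0.00113% identical peaks, and no samples were merged.

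Windows were built from GENCODE M1 on the same build and counted as occupied at an overlap of 1 bp or more. They use the first exons of all transcripts, because the annotation collapses the alpha and gamma transcripts into 3 symbols. The planned main choice, the longest coding transcript, became the alternative. Tag counts of merged regions with a peak in every sample compared were tested across the genome with edgeR 4.0.16 (R 4.3.3), quasi-likelihood test, TMM scaling and BH adjustment at 0.05, in fits holding only the groups compared. Window presence was compared by the exact Fisher test (scipy 1.17.1), with BH adjustment over windows with a peak in some samples but not all. Alternatives were DESeq2 1.42.0, limma 3.58.1 on log2 fold enrichment, other scalings, peak thresholds and window definitions, a term for processing run, a block for clone series and leaving out each sample. The code was tested on simulated counts and peaks.

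Windows named were those with all-or-none peaks, up to 3 regions of smallest p per cluster, comparison and direction, the 2 with most and 2 with fewest peaks per cluster, and Pcdhac1, Pcdhac2, Pcdhgc3, Pcdhgc4 and Pcdhgc5. The last 5 could not be told apart in this annotation, and other windows named were chosen after their values were seen. The Pcdhb22 region was set apart from the beta regions after its values were seen. The members, the gene lists and the tests were chosen with earlier results of these data known.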

Additional observations from a re-analysis of the deposited data

Results flagged for a closer look

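The number of alpha windows with a peak was 7 in Aid+/+ iPS replicate 2 and 8 in each of the other 3 Aid+/+ clones, which stands apart by Dixon's test for 4 samples. The window without a peak in that clone was alpha exon 4. With 3 tied counts, a difference of any size fills the whole range, so the test passes by construction and nothing is read from it. Of 80 such tests on window counts, fold enrichment and tags per filtered tag in the groups of 4 clones, this was the 1 that passed the limit, and chance gives about 4.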

How the results depend on the processing

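Peaks are the limit of these data, since a window below the caller's threshold has no value and the test keeps just the regions with peaks throughout. No paired analysis was possible because the replicate numbers follow the order of the samples and only the MEF labels carry numbers. The clone series that both iPS genotypes share was instead used as a block, which called no protocadherin region.

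Regions higher in MEFs than in Aid+/+ iPS cells numbered 5 with filtered tags as library size, 4 on fold enrichment (limma) and 6 with peaks past the stricter threshold of 1e-10, against 10 with the Pcdhb22 region included. Regions lower numbered 3 with filtered tags and 1 on fold enrichment, against 0. Over all regions, calls higher and lower in MEFs numbered 5458 and 4497 under TMM, 1330 and 18101 with filtered tags, and 1202 and 6026 on fold enrichment. With filtered tags the log2 change turned to -0.99 at alpha exon 2, -0.97 at Pcdhb15, -0.29 at Pcdhb16 and -0.80 at Pcdhb19. On fold enrichment it turned to -0.11 at Pcdhb10, -0.16 at Pcdhb13, -0.53 at Pcdhb15, -0.0044 at Pcdhb16, -1.14 at Pcdhb19 and -0.0081 at Pcdhb22. For ES cells, DESeq2 called 1 region higher (alpha exon 5) against 0, and alpha exon 3 ran from -0.0555 without ES replicate 3 (B6 ES) to 1.37 without ES replicate 2.

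Between genotypes no alternative called a protocadherin region. With the processing run as a term the log2 change turned to 0.39 at Pcdhb6, -0.26 at Pcdhb10, 0.19 at Pcdhb19 and -0.0227 at Pcdhb22. With peak length in the offset it turned to 0.0782 at Pcdhb18, 0.087 at Pcdhb19 and 0.064 at gamma exon 1. On fold enrichment it turned to 0.26 at gamma exon 1 and -0.0274 at gamma exon 5. Pcdhb19 turned to 0.065 with the clone series as a block, and ran from -0.30 to 0.0245 when a clone was left out, turning without Aid-/- iPS replicate 4. None of these passed the test before or after.

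With an equal number of the most significant peaks in every sample, windows with peaks in all MEFs and no Aid+/+ iPS clone numbered 12, against 2, and the reverse 0, against 2. No share over all gene windows was computed with equal peaks. Windows of all Aid+/+ iPS clones and no MEF culture numbered 1 with 2 kb upstream and 0 with the longest transcript. In the ES comparison, windows of all ES lines and no Aid+/+ iPS clone numbered 2 with equal peaks, against 0. The reverse numbered 0 under the stricter threshold, with equal peaks and with the longest transcript, against 1, and 1 to 8 when a sample was left out. It was 8 without B6 ES and 2 without Aid+/+ iPS replicate 2.

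Under the stricter threshold the mean number of windows with a peak was 6.25 alpha and 8.25 beta in Aid+/+ iPS cells, 8.75 beta and 4 gamma in Aid-/- iPS cells, 5.33 alpha in ES cells, and 11.7 beta and 3 gamma in MEFs. With equal peaks the alpha means were 3.5, 5.25 and 6 in Aid+/+ iPS, Aid-/- iPS and ES cells, the beta means 2, 3 and 11 in Aid+/+ iPS cells, Aid-/- iPS cells and MEFs, and the gamma means 0.5, 1.25 and 2.67 in the same groups. With the longest transcript, which leaves 2 alpha windows and 1 gamma window, they were 1, 1.25, 1 and 1 alpha (Aid+/+ iPS, Aid-/- iPS, ES, MEF) and 0.5, 0.5 and 1 gamma (Aid+/+ iPS, Aid-/- iPS, MEF). With 2 kb upstream the gamma mean in MEFs was 4.33. Apart from construction, the cause of these shifts was not tested.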
